A study of Mus musculus with 11 samples.

Results

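Cytosolic ribosomal proteins are the protein building blocks of the ribosomes that translate nuclear messenger RNA. Their genes were taken from a table of gene counts of mouse heart RNA as every protein-coding gene whose symbol starts with Rpl or Rps followed by a digit, together with Rplp0, Rplp1, Rplp2 and Rpsa and without the Rps6k kinases. The rule took 92 of 55487 genes. Of these, 77 encode core subunit proteins, 46 of the large subunit and 31 of the small subunit. A further 8 are paralogs (Rpl3l, Rpl7l1, Rpl10l, Rpl22l1, Rpl36al, Rpl39l, Rps27l and Rps27rt), 6 carry pseudogene names although the annotation calls them protein-coding, and 1, Rps19bp1, encodes a protein that binds Rps19 and is not a ribosome subunit.

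The samples were whole-tissue heart RNA of female C57BL/6NTac mice, an inbred strain, that were 8 weeks old when feeding began. The control-diet group (4 libraries) ate a diet with 10.4% of its energy from fat for 24 weeks. The obese group (4 libraries) ate, for the same time, an obesogenic diet made of a solid feed with 60.3% of its energy from fat and of sweetened condensed milk, and from week 16 was gavaged with the vehicle, 10% PEG400. The cocktail group (3 libraries) ate the obesogenic diet and received dasatinib (5 mg/kg, a tyrosine kinase inhibitor) with quercetin (50 mg/kg, a plant flavonoid) in that vehicle, gavaged on 3 days in a row each week from week 16, a pair used to deplete senescent cells. The labels mention gavage for the obese groups only, so diet and gavage cannot be told apart. They do not say whether each library is a separate animal, and the p-values below therefore cover the spread of these libraries, part of which may be technical.

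Ribosomal proteins are needed in near-equal amounts, since almost all of them enter each ribosome in the same copy number. Their messengers differ in level between genes and are among the most abundant of a cell. Most of them begin with a run of pyrimidines, the terminal oligopyrimidine (TOP) tract, through which the kinase mTOR and the RNA-binding protein Larp1 set their translation and stability. In the heart, ribosome number rises with hypertrophic growth. Adult striated muscle also makes Rpl3l, a paralog that takes the place of Rpl3 in part of the ribosomes.

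Annotated start sites of the members differed in whether such a tract was visible. In the following RefSeq windows (GRCm38.p6), each of 30 bases read 5′ to 3′ with the start site at the centre, capitals mark the longest run of C and T. They were picked as examples of long and short runs: Rps6 to Rplp2 are core genes with a long run, Rps13 and Rps15 core genes with a short one, and the last 3 are paralogs, of which Rpl22l1 has a long run and Rpl3l and Rpl7l1 short ones.

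Rps6 (chr4:86857353-86857382, minus strand): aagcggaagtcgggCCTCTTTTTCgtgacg
Rps27 (chr3:90213634-90213663, minus strand): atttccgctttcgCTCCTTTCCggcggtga
Rps26 (chr10:128626492-128626521, minus strand): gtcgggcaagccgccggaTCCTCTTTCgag
Rpl15 (chr14:18270972-18271001, minus strand): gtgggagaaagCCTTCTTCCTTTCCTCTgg
Rplp2 (chr7:141447636-141447665, plus strand): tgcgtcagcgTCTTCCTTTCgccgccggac
Rps13 (chr7:116334176-116334205, minus strand): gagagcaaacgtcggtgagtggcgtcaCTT
Rps15 (chr10:80292416-80292445, plus strand): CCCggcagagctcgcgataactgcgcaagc
Rpl22l1 (chr3:28805493-28805522, plus strand): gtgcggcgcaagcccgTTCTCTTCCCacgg
Rpl3l (chr17:24727811-24727840, plus strand): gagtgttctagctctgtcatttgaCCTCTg
Rpl7l1 (chr17:46782642-46782671, minus strand): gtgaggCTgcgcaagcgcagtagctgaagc

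A run of at least 8 pyrimidines within 30 bases on either side of a start stood in 34 of 67 start windows of 57 core genes (50.75%), in 3 of 11 windows of 9 other members (27.27%) and in 22.94% of 32851 windows of all genes. Over the region from 250 bases before to 50 bases after the start, CCGGAAG, the letters of the ETS-factor core, was found on either strand in 37.31% of core windows and 8.858% of all windows. AAGATGG, found in YY1 sites, stood in 16.42% of core windows against 6.338% of all, and TATAAA in 8.955% against 13.62%. Matches of different motifs may overlap. These are matches of letters and not sites of binding, and a gene could hold several starts. RefSeq promoter windows were found for 66 of the 92 members.

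Paralogs can be counted apart only where their sequence differs. The first 60 coding bases (GRCm38, GENCODE M21 transcripts) of 4 pairs whose copies differed in direction or call in at least 1 comparison are printed with capitals at bases that differ from, or are absent in, the partner.

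Rpl3: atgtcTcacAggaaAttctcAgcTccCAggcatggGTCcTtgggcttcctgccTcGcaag
Rpl3l: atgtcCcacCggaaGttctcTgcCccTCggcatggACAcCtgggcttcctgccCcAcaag
Rps27: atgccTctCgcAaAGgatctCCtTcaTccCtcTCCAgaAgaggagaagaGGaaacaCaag
Rps27l: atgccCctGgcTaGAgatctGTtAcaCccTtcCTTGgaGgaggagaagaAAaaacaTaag
Rpl7: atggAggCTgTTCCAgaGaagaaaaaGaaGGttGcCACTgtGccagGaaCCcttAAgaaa
Rpl7l1: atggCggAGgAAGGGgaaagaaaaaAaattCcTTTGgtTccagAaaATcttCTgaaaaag
Rpl22: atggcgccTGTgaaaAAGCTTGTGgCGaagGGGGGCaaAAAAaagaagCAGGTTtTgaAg
Rpl22l1: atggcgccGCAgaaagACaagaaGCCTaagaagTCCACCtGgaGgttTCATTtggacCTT

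Over the whole coding sequence, Rpl3 and Rpl3l shared 74.4% of aligned bases, with no shared run longer than 22 bases. The same identity was 76.2% for Rps27 and Rps27l (longest run 11 bases), 62.6% for Rpl7 and Rpl7l1 (10 bases) and 70.2% for Rpl22 and Rpl22l1 (26 bases). Reads of 150 bases thus span differences in each of these pairs. Rps27rt, in contrast, is identical to Rps27 over all 252 coding bases, and its counts cannot be separated from those of Rps27 there. Copies of ribosomal protein genes are common: 278 genes annotated as Rpl or Rps pseudogenes drew counts equal to 0.979% ± 0.124 of the member counts in control-diet hearts (SD, n = 4), 1.67% ± 0.294 in obese ones (SD, n = 4) and 1.28% ± 0.210 with the cocktail (SD, n = 3). Exons of 39 members overlap another gene, for 19 of them on the opposite strand, and whether counting used strand is not stated in the sources.

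Control-diet libraries held 88.6 ± 12.4 M counts (SD, n = 4), obese ones 57.1 ± 6.84 M (SD, n = 4) and cocktail ones 68.3 ± 4.05 M (SD, n = 3). TMM, which scales libraries so that most genes do not differ, gave factors of 0.733 to 0.954, 1.02 to 1.19 and 1.05 to 1.198 in that order. Genes of the classes sense-intronic and TEC took 0.399% ± 0.139, 0.732% ± 0.0630 and 0.603% ± 0.0837 of counts, called the intronic share below. Levels are given in CPM, counts per 1 M of the TMM-scaled library total, and so depend on these factors. Ventricular markers (9 genes) summed to 78836 to 108043 CPM in control-diet hearts, 74871 to 97552 CPM in obese and 82834 to 96445 CPM in cocktail libraries. Of the 9 genes, 4 were called lower with the diet. The 7 atrial markers stood at 3671 CPM in obese replicate 3 and at 4838 and 7989 CPM in cocktail replicates 2 and 3, against 314.3 to 774.8 CPM in the other 8 libraries. In those 8, Pam made up most of the sum, such as 297.2 CPM in obese replicate 1. The split was not clean. Myl7 stood at 17.2 and 31.8 CPM in obese replicates 2 and 4, against 0.0283 to 5.52 CPM on the control diet. It was at 0.394 and 3.09 CPM in obese and cocktail replicates 1. The adipocyte list (6 markers) summed to 0.255 to 0.453 CPM in control-diet hearts, 0.411 to 9.05 CPM in obese and 0.991 to 11.01 CPM in cocktail libraries, and 4 of the 6 were called higher with the diet. Endothelial markers (7 genes) summed to 867.3 to 1021 CPM in control-diet hearts and 673.9 to 835.4 CPM in obese ones, smooth muscle and pericyte markers (8 genes) to 1391 to 1591 and 899.1 to 1214 CPM, and lymphocyte markers (9 genes) to 6.70 to 10.4 and 2.39 to 4.72 CPM, with 3, 2 and 3 genes called lower. The fibroblast, erythroid, Schwann cell, mesothelial and proliferation lists each had 1 gene called higher with the diet and 0 lower. Over all genes tested, 15.7% were called lower and 14.4% higher in that comparison. Mitochondrially encoded genes took 28.2% to 32.3% of counts in control-diet, 21.4% to 24.5% in obese and 17.8% to 22.4% in cocktail libraries. No marker of the 12 lists was at 0 in all libraries, and the part of tissue makeup in the results was not tested. In bulk tissue, fewer cells of a type and less RNA per cell cannot be told apart.

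Ribosomal protein messengers were lower in obese than in control-diet hearts throughout both subunits. Of 92 members, 87 passed the low-count filter, and 80 of these fell and 0 rose (edgeR's quasi-likelihood test, Benjamini-Hochberg adjusted p under 0.05), where 15.7% of all 23779 genes tested fell and 14.4% rose. The median log2 fold change of the members was -0.93, against 0.11 over all genes. All 87 had a negative log2 fold change, from -1.48 to -0.28. In 78 members every obese library lay below every control-diet library, which held for 14.7% of all genes. The large subunit had 44 of 46 core genes lower, with a median of -0.95, and the small subunit 31 of 31, with a median of -0.96.

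**Figure D1:**
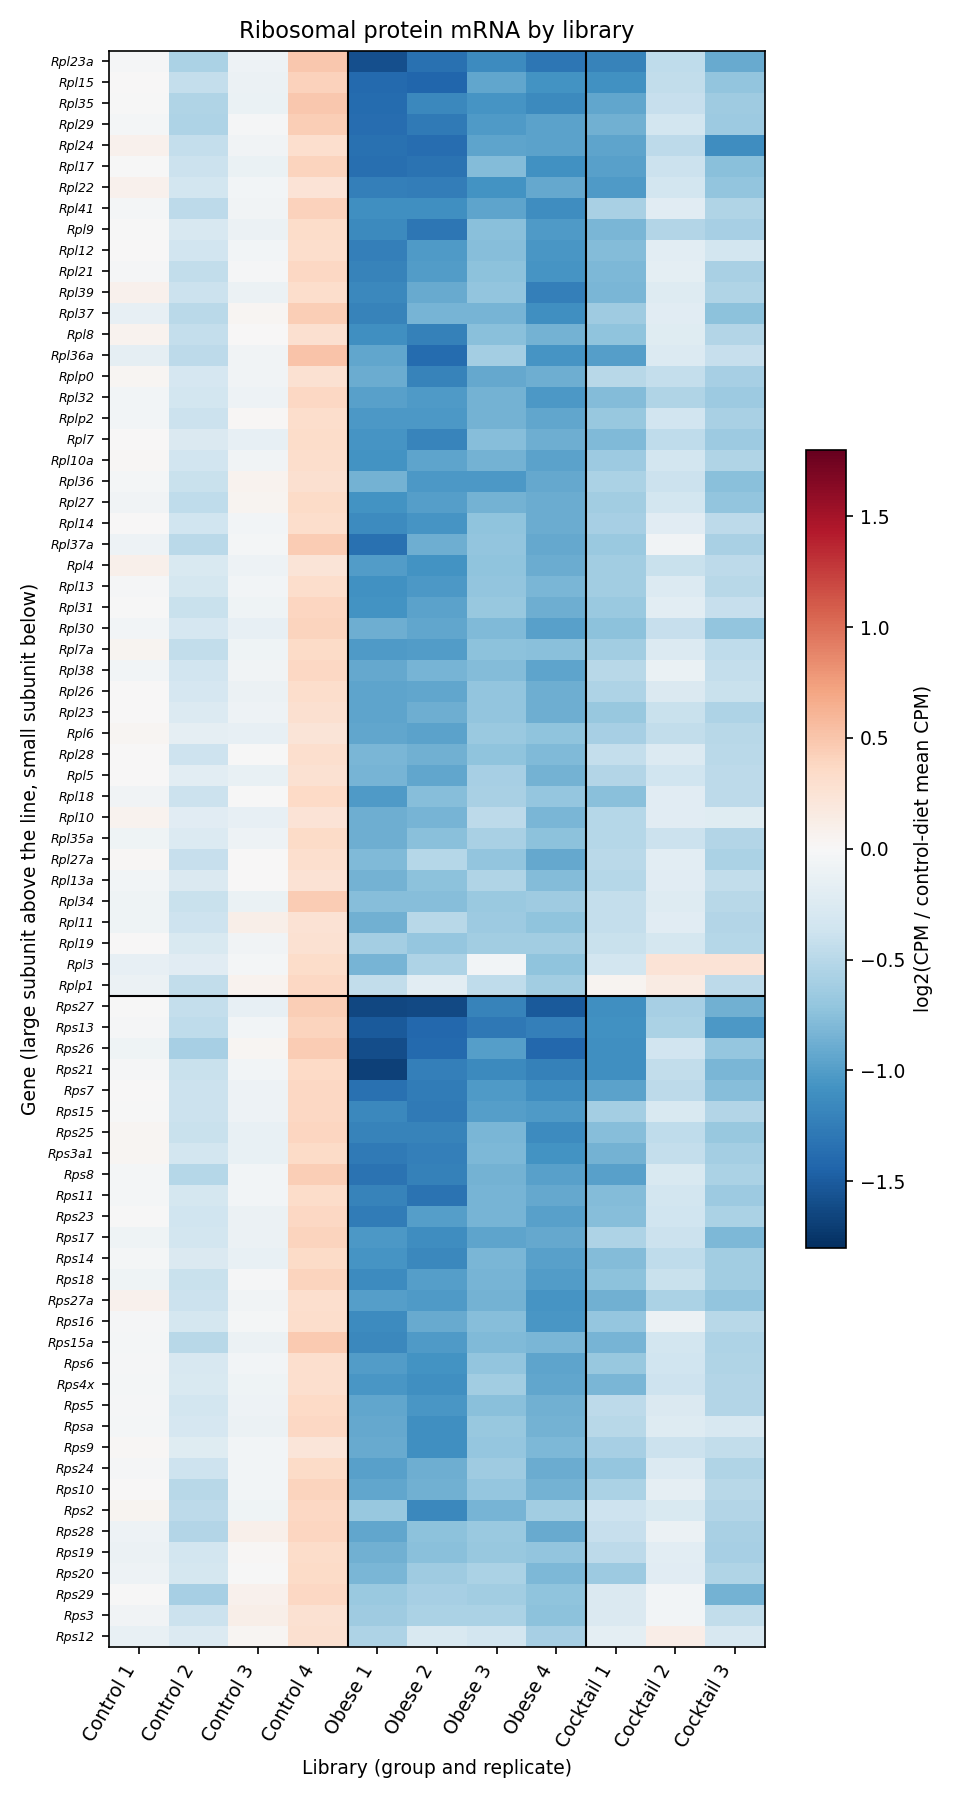
Level of core ribosomal protein genes in each of 11 libraries, as log2 of CPM over the control-diet mean; columns are libraries, and genes are ordered within each subunit by their obese against control-diet change. The library medians over all 77 core genes lie between -1.03 and -0.76 in the 4 obese libraries, between -0.66 and -0.32 in the 3 cocktail libraries and between -0.38 and 0.35 on the control diet.

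As a share of all deposited counts, the 92 members took 0.690% ± 0.0632 in control-diet hearts (SD, n = 4), 0.494% ± 0.0627 in obese ones (SD, n = 4) and 0.665% ± 0.0851 with the cocktail (SD, n = 3). Within the counts of nuclear protein-coding genes alone the shares were 1.22% ± 0.152, 0.793% ± 0.0852 and 1.001% ± 0.0969. On both denominators the highest obese library lay below the lowest control-diet library. The balance of the subunits moved little: counts of large over small subunit core genes stood at 1.43 ± 0.0367, 1.47 ± 0.0238 and 1.45 ± 0.0184.

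Among small subunit genes, Rps27, a zinc-finger protein, had the largest fall of all members. Its level was 119.4, 88.5, 108.2 and 162.1 CPM in control-diet hearts, 38.5, 38.9, 52.2 and 42.0 CPM in obese and 55.8, 79.0 and 65.9 CPM in cocktail libraries. All obese libraries lay below all cocktail libraries, which lay below all control-diet libraries. Rps27 was 2.79-fold lower in obese than in control-diet hearts (log2 fold change -1.48 with SE 0.18, edgeR adjusted p = 0.000245).

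Rps13, a core protein of the small subunit platform, followed with 130.1, 96.3, 127.7 and 173.9 CPM in control-diet hearts and 46.4, 49.8, 54.0 and 56.1 CPM in obese libraries, 2.56-fold lower (edgeR adjusted p = 0.000278). Its 3 cocktail libraries stood at 62.1, 89.0 and 64.7 CPM, between the other groups without overlap. Rps26, which contacts messenger RNA at the exit channel, had 41.8, 29.1, 45.2 and 60.4 CPM in control-diet hearts and 14.6, 16.7, 22.1 and 16.5 CPM in obese libraries, 2.52-fold lower (edgeR adjusted p = 0.0012). The groups did not overlap, and cocktail libraries (20.6, 34.7 and 27.3 CPM) overlapped both. Rps21 was 2.46-fold lower (edgeR adjusted p = 0.000465), at 26.8 ± 5.82 CPM in control-diet hearts and 10.9 ± 1.71 CPM in obese hearts (SD, n = 4 each). Rps7, which can bind Mdm2, was 2.26-fold lower (edgeR adjusted p = 0.000386).

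Rps6, the substrate of the ribosomal S6 kinases that is used to read mTOR activity, lay near the middle of the range. It had 159.2, 131.7, 155.4 and 198.9 CPM in control-diet hearts, 80.0, 76.8, 98.1 and 83.4 CPM in obese and 100.3, 125.3 and 111.0 CPM in cocktail libraries. The 3 groups did not overlap, and Rps6 was 1.91-fold lower with the diet (log2 fold change -0.93 with SE 0.14, edgeR adjusted p = 0.000573). Rps4x, encoded on the X chromosome, was 1.89-fold lower (edgeR adjusted p = 0.00102). Rpsa, also known as the laminin receptor, was 1.84-fold lower (edgeR adjusted p = 0.00132). The smallest change of a small subunit gene was that of Rps12, from 53.8 ± 8.94 to 39.8 ± 4.53 CPM (SD, n = 4 each), a 1.35-fold fall (edgeR adjusted p = 0.0281); it is named here after its value was seen, and without TMM factors its log2 fold change turned to 0.012.

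In the large subunit, Rpl23a, which lies at the exit of the peptide tunnel, had the largest fall. It was at 118.8, 80.6, 112.5 and 168.4 CPM in control-diet hearts and at 40.3, 47.3, 54.8 and 48.7 CPM in obese libraries. No obese library reached the lowest control-diet library, and the gene was 2.51-fold lower (log2 fold change -1.33 with SE 0.21, edgeR adjusted p = 0.00093). Rpl15 was 2.28-fold lower (edgeR adjusted p = 0.000862), from 82.6 ± 20.2 to 36.2 ± 6.13 CPM (SD, n = 4 each).

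Large subunit genes that did not pass were Rpl3 and Rplp1. Rpl3, a core protein close to the peptidyl transferase centre, had 91.0, 87.4, 98.9 and 126.9 CPM in control-diet hearts, and 56.8, 69.1, 97.4 and 60.9 CPM in obese libraries. Obese replicate 3, one of the libraries with high atrial markers, overlapped the control-diet group, while the other obese libraries lay below it (log2 fold change -0.51 with SE 0.19, edgeR adjusted p = 0.0568). Rplp1 belongs to the acidic stalk, the flexible arm of Rplp0, Rplp1 and Rplp2 that recruits elongation factors. Rplp0 and Rplp2 were 1.96-fold and 1.95-fold lower (edgeR adjusted p = 0.000445 and 0.000489), whereas Rplp1 had 56.5 ± 13.2 and 42.2 ± 5.35 CPM (SD, n = 4 each; log2 fold change -0.42 with SE 0.17, edgeR adjusted p = 0.0825).

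**Figure D2:**
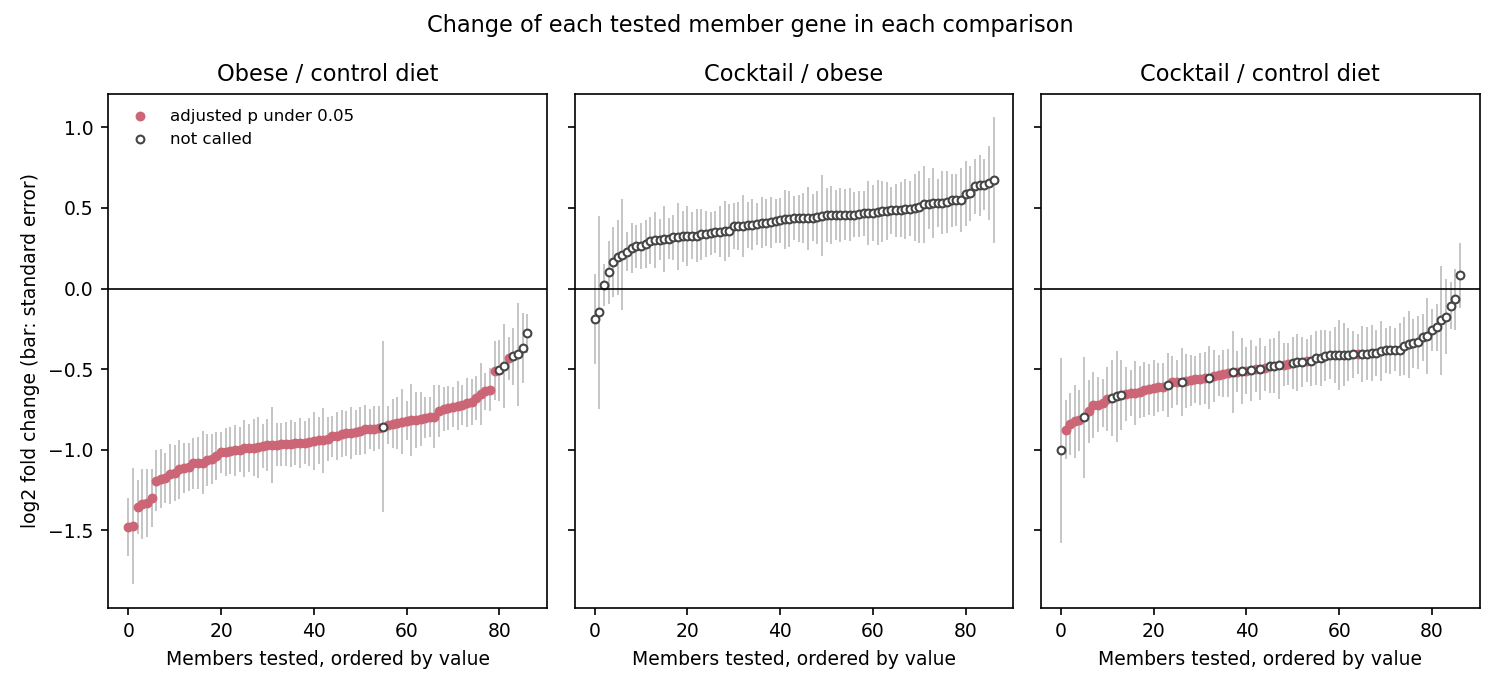
Log2 fold change of the 87 members tested, with its standard error, ordered by value within each of the 3 comparisons; filled points passed an adjusted p under 0.05. With the diet 80 members passed, all below 0, against 0 between the cocktail and obese groups, where 85 of 87 values lie above 0, and 37 between the cocktail and control-diet groups.

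The diet result depends on how libraries are put on one scale and on what is held constant. With no TMM factors the median of all genes rose from 0.11 to 0.53 and that of the members from -0.93 to -0.48, so that the members lay 1.01 below all genes in place of 1.04 below, and 60 members fell and 0 rose. All calls over the table then split into 9061 higher and 960 lower, against 3429 and 3737 with TMM and 4378 and 2926 with upper-quartile scaling. With the intronic share of each library as a covariate, 0 of 87 members passed edgeR's test and the median was -0.44. At an unadjusted p under 0.05, 27 members were lower and 0 higher. Over all 23779 genes that fit called 121, and 3038 had an unadjusted p under 0.05 in either direction.

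**Figure D3:**
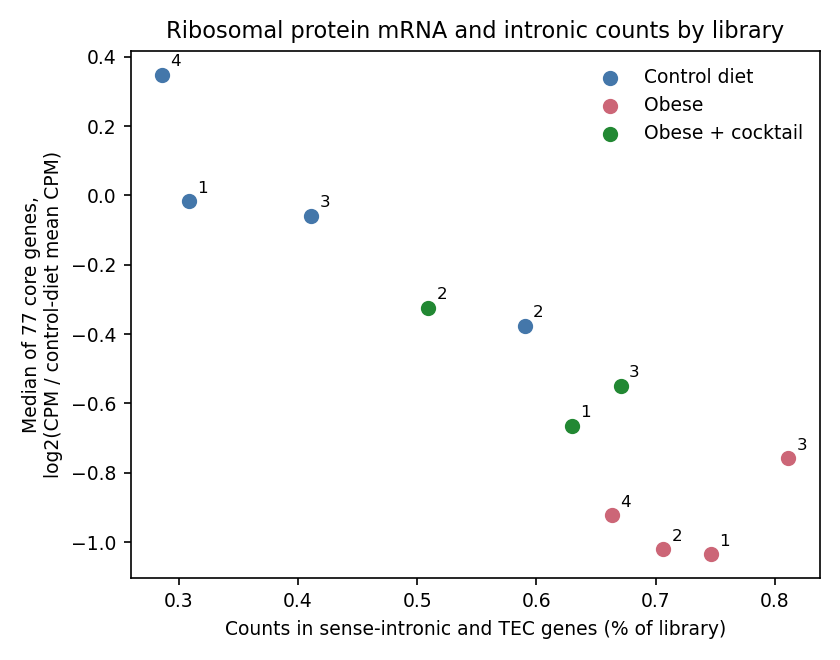
Median log2 ratio of the 77 core genes to the control-diet mean in each library against the library's intronic share (percent of counts); numbers are replicates. Obese libraries hold 0.663% to 0.811% and lie at -1.03 to -0.76, control-diet libraries hold 0.286% to 0.590% and lie at -0.38 to 0.35, and cocktail libraries fall between on the y axis, except that cocktail replicate 2 lies above control-diet replicate 2.

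Across the groups, the members' level was lower where the intronic share was higher. No obese library had an intronic share as low as the highest control-diet library. Within the control-diet group, replicate 2 had both the highest intronic share, 0.590%, and the lowest library median, -0.38, and replicate 4 had the lowest share, 0.286%, and the highest median, 0.35. Within the obese group the order was different, since replicate 3 had the highest share, 0.811%, and the highest median, -0.76. The part of intronic RNA or RNA quality in the diet result was not tested beyond that covariate.

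Log2 fold changes with the diet ran from -1.47 (Rps27rt) to -0.28 over the 6 paralogs tested, and from -1.48 to -0.42 over the core genes. Of the 6 paralogs, 4 were called lower and 0 higher, where 15.7% of all genes were lower and 14.4% higher. Rps27l, a p53-responsive copy of Rps27, went from 10.0 ± 2.94 to 5.66 ± 0.469 CPM (SD, n = 4 each), 1.77-fold lower (edgeR adjusted p = 0.0089). Rpl22l1 was 1.74-fold lower (edgeR adjusted p = 0.00901) and Rpl36al 1.42-fold lower (edgeR adjusted p = 0.0486), and Rps27rt, at under 1 CPM in each library, was 2.78-fold lower (edgeR adjusted p = 0.00903), with the limit given above. Rpl7l1, a nucleolar relative of Rpl7, had 18.6, 13.95, 16.9 and 20.0 CPM in control-diet hearts and 13.8, 13.4, 14.9 and 15.2 CPM in obese libraries. The groups overlapped (log2 fold change -0.28 with SE 0.12, edgeR adjusted p = 0.0921).

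The ratio of a paralog to its main copy in 1 library does not depend on library scaling. By counts per exon length (the ratio of RPKM values, with merged exons as the length), Rpl7l1 stood at 0.0636, 0.0575, 0.0644 and 0.0546 of Rpl7 on the control diet, at 0.0986, 0.104, 0.0872 and 0.0957 in obese and at 0.0798, 0.0746 and 0.0777 in cocktail libraries. The 3 groups did not overlap, with the cocktail group in the middle. Mean RPKM went from 83.2 to 42.7 for Rpl7 and from 4.97 to 4.10 for Rpl7l1 between control-diet and obese hearts. The higher ratio thus came with a larger fall of Rpl7, and ratios of other genes to Rpl7 were not examined. The ratio of Rps27l to Rps27 had the same order of groups: 0.107 ± 0.00326 in control-diet hearts (SD, n = 4), 0.171 ± 0.0234 in obese ones (SD, n = 4) and 0.120 ± 0.00947 with the cocktail (SD, n = 3). Its lowest obese library, 0.138, lay above the highest cocktail library, 0.131, and the lowest cocktail library, 0.113, above the highest control-diet library, 0.111. Here too the main copy fell more. Between control-diet and obese hearts, mean RPKM went from 114.6 to 41.1 for Rps27 and from 12.3 to 6.94 for Rps27l. Since Rps27 had the largest fall of all members, a higher ratio to it need not be particular to Rps27l. Ratios of other genes to Rps27 were not examined. Rpl36al to Rpl36a (1.44 ± 0.189, 2.04 ± 0.461 and 1.59 ± 0.359) and Rpl22l1 to Rpl22 (0.149 ± 0.0371, 0.181 ± 0.0404 and 0.167 ± 0.0206) overlapped between groups.

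**Figure D4:**
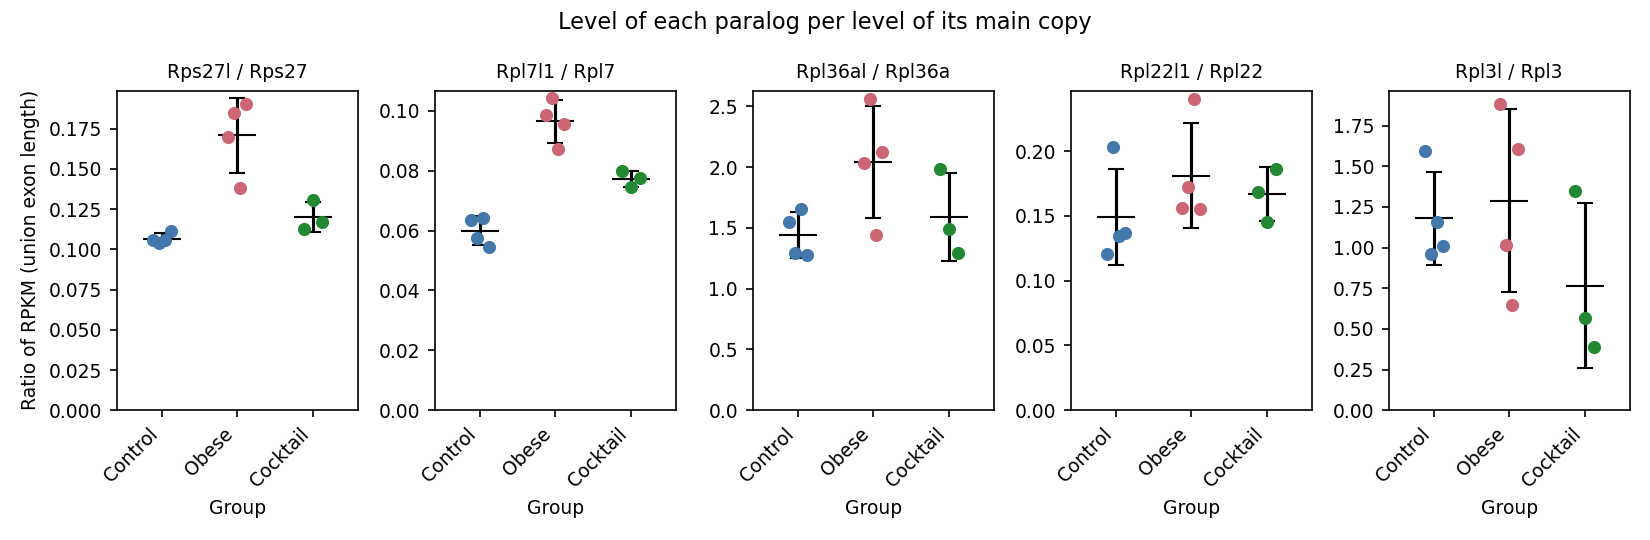
Ratio of each of 5 paralogs to its main copy, from counts per merged exon length; points are libraries, and black marks give the mean and SD of each group. The groups do not overlap for Rps27l over Rps27 and for Rpl7l1 over Rpl7, and they overlap in the other 3 panels.

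Rpl3l had 75.01, 43.4, 59.1 and 66.5 CPM in control-diet hearts, 55.4, 36.3, 32.6 and 50.6 CPM in obese and 55.7, 35.4 and 24.0 CPM in cocktail libraries. The lowest values were those of cocktail replicate 3 and obese replicate 3, and groups overlapped (obese against control diet, log2 fold change -0.48 with SE 0.26, edgeR adjusted p = 0.177). Per merged exon length, Rpl3l was at 1.18 ± 0.287 times Rpl3 in control-diet hearts (SD, n = 4), 1.29 ± 0.561 in obese ones (SD, n = 4) and 0.767 ± 0.509 in cocktail libraries (SD, n = 3). By the length of the principal transcript, the same ratios were 0.600, 0.655 and 0.390, so in the control-diet and obese groups which copy has the higher mean level depends on the length used, while in the cocktail group Rpl3 is higher by both. The 3 lowest ratios by merged exons, 0.647 in obese replicate 3 and 0.568 and 0.386 in cocktail replicates 2 and 3, came from the 3 libraries with high atrial markers, where Nppa, the atrial natriuretic peptide, stood at 712.1, 1116 and 2346 CPM. In the other 8 libraries the ratio ran from 0.961 to 1.88. The part of atrial tissue in these ratios was not tested.

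**Figure D5:**
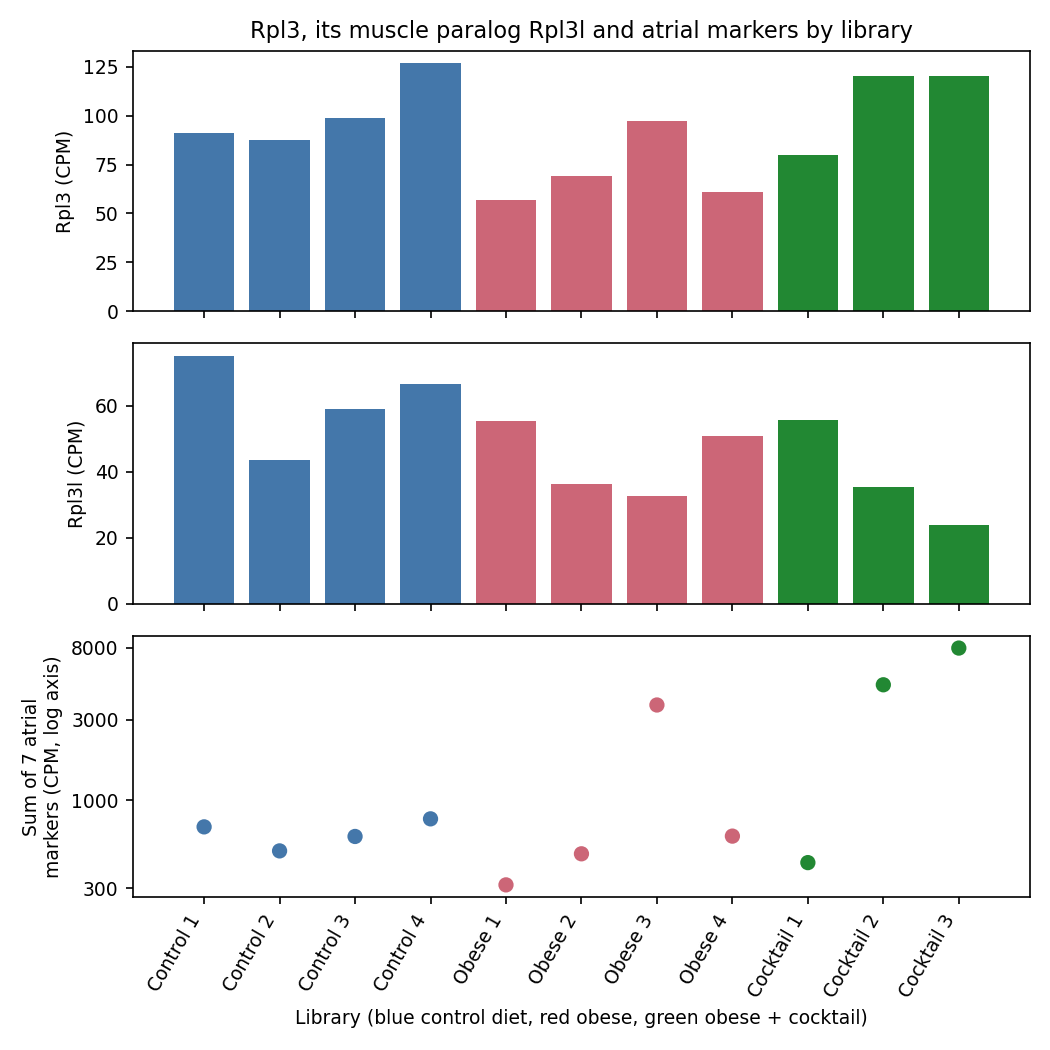
Level of Rpl3 and Rpl3l (CPM, bars) and the sum of 7 atrial markers (CPM, log axis, points) in each of 11 libraries, coloured by group. The 3 libraries with 3671 to 7989 CPM of atrial markers (obese replicate 3, cocktail replicates 2 and 3) hold the highest Rpl3 of their groups and the lowest Rpl3l, at 24.0 to 35.4 CPM.

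Members that the filter left out were Rpl10l, a testis-expressed copy of Rpl10, and Rpl36-ps4, both with 0 counts in all libraries, and Rpl39l, Rpl36a-ps1 and Rpl9-ps1 with 17, 24 and 4 counts in total. Rps19bp1 (log2 fold change -0.37 with SE 0.22, edgeR adjusted p = 0.21), Rps12-ps3 (-0.41, SE 0.32) and Rpl9-ps6 (-0.86, SE 0.53) were tested and did not pass with the diet. Over the other settings run, the diet value reached 0.071 for Rps19bp1 and 0.0056 for Rps12-ps3, so both signs depended on the processing. Rpl10-ps3 was 1.76-fold lower (edgeR adjusted p = 0.0154); its sequence is close to that of Rpl10, so its counts are uncertain.

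The comparison of cocktail-treated with vehicle-treated obese hearts asks what the senolytic pair changed under the same diet. In edgeR's quasi-likelihood test 0 of 87 members rose and 0 fell, where 0.0% of all genes passed in either direction. At an unadjusted p under 0.05, 64 members were higher and 0 lower, where 5.04% of all genes were higher and 5.16% lower. The 64 became 17 without cocktail replicate 2, 41 without obese replicate 1 and 11 with the intronic covariate. In those fits 1264 of 24530, 1774 of 23607 and 1976 of 23779 genes were under that p in either direction. Without the 3 atrial-rich libraries, which left 1 cocktail library, the members' median was 0.31 in place of the value below, against -0.0099 over all genes. The values pointed one way. All 77 core genes had a positive log2 fold change, from 0.23 to 0.66, and the median of the 87 members was 0.44, against -0.0069 over all genes. In 50 members every cocktail library lay above every obese library, which held for 4.68% of all genes. DESeq2 called 1 member, Rps15, and limma voom 0.

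Rps15, a small subunit protein at the decoding site, had the smallest p. Obese libraries had 60.7, 56.0, 67.8 and 66.7 CPM, and cocktail libraries 88.6, 112.0 and 93.5 CPM. The groups did not overlap, and the log2 fold change was 0.64 (SE 0.16, edgeR adjusted p = 0.354; DESeq2 adjusted p = 0.0493). Rpl41, the shortest ribosomal protein, had 70.4, 70.2, 78.1 and 69.9 CPM in obese and 100.5, 131.5 and 103.8 CPM in cocktail libraries, again without overlap (log2 fold change 0.63 with SE 0.17, edgeR adjusted p = 0.37). Rpl38, known for roles in selective translation during development, had a log2 fold change of 0.53 (SE 0.15, edgeR adjusted p = 0.381) and Rpl12 one of 0.59 (SE 0.17, edgeR adjusted p = 0.386). Each of these genes had its highest cocktail value in replicate 2.

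Members below 0 in this comparison were Rpl3l (log2 fold change -0.19 with SE 0.28, edgeR adjusted p = 0.838) and Rpl9-ps6 (-0.15, SE 0.60, edgeR adjusted p = 0.948). Rpl3 had 80.0, 120.3 and 120.3 CPM in cocktail libraries (log2 fold change 0.59 with SE 0.20, edgeR adjusted p = 0.402), and its 2 high libraries are those with high atrial markers. Without the 3 atrial-rich libraries 1 cocktail library remained, assumed in that fit to vary like the other groups, and Rpl3l turned from -0.19 to 0.24.

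The comparison of cocktail-treated obese with control-diet hearts asks which differences from the control diet were present under the cocktail. It shares the cocktail libraries with the comparison above and the control-diet libraries with the first. Here 37 of 87 members were called lower and 0 higher, all 37 core genes, where 8.39% of all genes were lower and 7.43% higher. The large subunit gave 22 of 46 and the small subunit 15 of 31, and the median of all members was -0.50, against 0.053 over all genes. In 31 members every cocktail library lay below every control-diet library, which held for 14.1% of all genes. These counts rest on few libraries, and the calls over all genes moved too. Leaving out cocktail replicate 3 left 1 member call, and 1011 calls over all genes in place of 3760. Cocktail replicate 1 left 7 (all genes 2691). Control-diet replicates 1, 3 and 4 left 11, 20 and 10 (all genes 1857, 2473 and 1816), and control-diet replicate 2 gave 71 (all genes 4652). Without the 3 atrial-rich libraries, which left 1 cocktail library, the members' median was -0.64, against 0.044 over all genes. The intronic covariate gave 0 member calls and 510 over all genes by edgeR. There 8 members were lower and 0 higher at an unadjusted p under 0.05. In that fit 4174 of all 23779 genes had an unadjusted p under 0.05 in either direction. With no TMM factors 1 member passed, the members' median was -0.055 and that of all genes 0.47.

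Rps13 had the largest called fall here, 1.83-fold (log2 fold change -0.88 with SE 0.18, edgeR adjusted p = 0.00906). Rps27 was 1.79-fold lower (edgeR adjusted p = 0.014), Rpl23a 1.77-fold (edgeR adjusted p = 0.03), Rpl24 1.76-fold (edgeR adjusted p = 0.0151), Rps21 1.70-fold (edgeR adjusted p = 0.0223) and Rpl15 1.65-fold (edgeR adjusted p = 0.0316). Rps27a, which is made as a fusion with ubiquitin, had the smallest p. Its level was 26.8, 19.4, 24.4 and 31.3 CPM in control-diet hearts, 12.9, 12.6, 14.2 and 12.2 CPM in obese and 14.02, 17.1 and 15.6 CPM in cocktail libraries. Cocktail libraries lay below all control-diet libraries and overlapped the obese ones (1.64-fold lower than on the control diet, edgeR adjusted p = 0.0085). Rpl32 was 1.57-fold lower (edgeR adjusted p = 0.0119). Rpl3 was the single member with a positive value (log2 fold change 0.081 with SE 0.20, edgeR adjusted p = 0.816), and it turned to -0.33 without the 3 atrial-rich libraries.

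Other genes of the translation machinery were read from lists taken from textbook knowledge. With the diet, 15.7% of all genes tested were called lower and 14.4% higher. Ribosomal proteins that the symbol rule leaves out include Fau, made as a fusion with a ubiquitin-like protein, and Rack1, a scaffold on the small subunit. With the diet, Fau fell 2.04-fold and Rack1 1.77-fold (edgeR adjusted p = 0.000319 and 0.00107). Of 19 other TOP messages, which code for elongation and initiation factors, Tpt1, Npm1, nascent-chain factors and others, 18 fell and 0 rose (median log2 fold change -0.82). Btf3, a subunit of the nascent polypeptide-associated complex, was 2.27-fold lower (edgeR adjusted p = 0.000245), and Npm1, a nucleolar chaperone, 2.07-fold lower (edgeR adjusted p = 0.00029).

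Of 39 initiation factors, 34 fell and 0 rose (median -0.70), with Eif1, which helps to select the start codon, 2.32-fold lower (edgeR adjusted p = 0.000216) and the Eif3 subunits Eif3c and Eif3b 2.00-fold and 1.72-fold lower (edgeR adjusted p = 0.000174 and 0.00023). Of 10 elongation factors, 8 fell, among them Eef2, the translocase, 1.65-fold (edgeR adjusted p = 0.00196), and 1, Eif5a2, rose 1.51-fold (edgeR adjusted p = 0.0365; median -0.50). Mitochondrial ribosomal proteins, which build the separate ribosome of that organelle, had 38 of 78 lower and 0 higher (median -0.45), with Mrps30 1.90-fold lower (edgeR adjusted p = 0.000601). Their median lay closer to that of all genes than the median of the cytosolic proteins did, a difference that was not tested.

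Ribosome biogenesis factors had 41 of 70 tested lower and 1, Nle1, higher (median -0.43). Gtpbp4 and Gnl2, GTPases of large subunit assembly, were each 1.63-fold lower (edgeR adjusted p = 0.000431 and 0.000601). Polymerase I and its factors, which transcribe the ribosomal RNA genes, had 6 of 15 lower and 2, Taf1c and Ttf1, higher (median -0.22). Rrn3, the initiation factor of that polymerase, was 1.58-fold lower (edgeR adjusted p = 0.0032).

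Genes that control ribosomal protein synthesis were mixed, with 9 of 28 lower and 3 higher (median -0.15). Eif4ebp1, a translation repressor that mTOR inactivates, had the largest fall of the named genes in this list, from 44.3 ± 6.73 to 15.6 ± 1.93 CPM (SD, n = 4 each), 2.84-fold (edgeR adjusted p = 8.2e-05), with 25.9 ± 5.73 CPM in cocktail libraries (SD, n = 3). Maf1, a repressor of polymerase III, was 1.68-fold lower (edgeR adjusted p = 0.000555) and Eif4ebp2 1.54-fold lower (edgeR adjusted p = 0.00199). The rises were Mycn, Rps6ka2 and Rps6kb2, and Myc, a transcription factor that drives ribosome genes, was 2.46-fold lower (edgeR adjusted p = 0.00524). These 4 genes, with Nle1, Taf1c and Ttf1 above, are named after their values were seen. Transcripts of Mtor itself and of Larp1 did not pass (log2 fold changes -0.12, SE 0.12, and -0.27, SE 0.11, edgeR adjusted p = 0.473 and 0.0863). Both signs depended on the scaling. Without TMM factors Mtor turned to 0.29 and was called higher (edgeR adjusted p = 0.0456), and Larp1 turned to 0.15 (edgeR adjusted p = 0.152). Larp1 also turned to 0.15 with the intronic covariate.

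Between the cocktail and obese groups, 0 genes of these lists passed edgeR's test, and at an unadjusted p under 0.05 13 of 39 initiation factors, 10 of 19 other TOP messages, 2 of 10 elongation factors and 3 of 78 mitochondrial ribosomal proteins were higher and 0 lower. Biogenesis factors had 4 higher and 3 lower of 70, growth control genes 6 and 2 of 28, and polymerase I genes 1 and 1 of 15. By the same measure, 5.04% of all genes tested were higher and 5.16% lower. With the intronic covariate, the counts of higher initiation factors and other TOP messages became 2 and 3. In that fit 1976 of all 23779 genes had an unadjusted p under 0.05 in either direction. Between the cocktail and control-diet groups, 8.39% of all genes were called lower and 7.43% higher. Called lower were 26 of 39 initiation factors, 12 of 19 other TOP messages, 21 of 70 biogenesis factors and 14 of 78 mitochondrial ribosomal proteins. The same held for 7 of 28 growth control genes, 4 of 15 polymerase I genes and 2 of 10 elongation factors, and 1 elongation factor was higher. With no TMM factors, the medians with the diet were -0.38 for other TOP messages and -0.27 for initiation factors. In that fit those of the growth control and polymerase I lists turned to 0.27 and 0.20, and that of biogenesis factors stood at 0.0018, where the median of all genes was 0.53. After adding the intronic share to the model, 0 genes of any of these lists passed edgeR's test with the diet. At an unadjusted p under 0.05, 15 of 39 initiation factors were lower and 1 higher. Of other TOP messages 7 of 19 were lower, and of biogenesis factors 6 of 70, with 0 higher in both. Mitochondrial ribosomal proteins had 6 higher and 2 lower of 78, and growth control genes 5 and 2 of 28. Of all 23779 genes, 3038 were under that p in either direction.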

How the data were processed

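The authors deposited 1 table of whole-number counts per gene for 11 libraries. Per the submitters' processing notes, cutadapt, HISAT2 and StringTie were used with GRCm38; versions, annotation, strand use and whether the counts are reads or coverage estimates are not stated there. GENCODE M21 (GRCm38) named 55227 of the 55487 identifiers. Members, gene lists and tests were chosen with earlier results of these data known.

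Genes passed edgeR's filterByExpr (minimum count 10, minimum total 15), which left 23779. A single model of 3 groups took the TMM-scaled counts of the 11 libraries (edgeR 4.0.16, robust quasi-likelihood, R 4.3.3), with Benjamini-Hochberg adjustment over all genes in each comparison and a threshold of 0.05. A standard error is the absolute log2 fold change over the square root of F. CPM values use TMM-scaled totals, and RPKM ratios use merged exon lengths, or principal transcript lengths as an alternative. DESeq2 1.42.0 and limma 3.58.1 were alternatives, with other scalings, filters, sample sets and covariates. The procedure was tested on simulated data. Coding sequences were aligned with Biopython 1.88.

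Named genes were the paralogs with their main copies, Rplp0, Rplp1, Rplp2, Rpsa and Rps6. In each comparison, up to 6 largest rises and falls and the 4 smallest p among members of at least 1 CPM were added, with the 3 smallest p of called genes from each other list. Some results that this rule names are not reported here. Rps4l is a pseudogene in the annotation and was not a member. Precision is limited by 3 or 4 libraries a group, and by depth for members under 1 CPM.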

Additional observations from a re-analysis of the deposited data

Results flagged for a closer look

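In 80 groups of 4 libraries of named members, the highest or lowest library was far from the other 3, by Dixon's criterion, in 4; chance alone gives about 1 in 20. Obese replicate 3 stood high for Rpl10, at 141.3 CPM against 106.2 to 110.3 CPM, and for Rpl41, at 78.1 CPM against 69.9 to 70.4 CPM. Obese replicate 2 stood low for Rplp0, at 187.4 CPM against 227.3 to 235.1 CPM, and obese replicate 1 low for Rps21, at 8.36 CPM against 11.5 to 12.1 CPM.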

How the results depend on the processing

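With the diet, 76 to 83 members passed when single libraries were left out (median -1.04 to -0.81) and 60 to 82 under the other settings except the intronic covariate, which gave 0 calls and a median of -0.44; without TMM factors (added after the data were seen, like leaving out the 3 atrial-rich libraries) the median was -0.48. Cocktail against obese gave 1 call by DESeq2 and 0 under every other setting run, and the median ran from 0.30 to 0.48 over left-out libraries and was 0.22 with the intronic covariate. Cocktail against control diet gave 1 to 71 calls over left-out libraries (median -0.62 to -0.38), where calls over all genes ran from 1011 to 4652. It gave 0 with the intronic covariate (median -0.17) and 1 without TMM factors (median -0.055). Its median without the atrial-rich libraries was -0.64. The replicate block gave 15 calls there and 81 with the diet. Same-numbered libraries correlated at -0.23 to 0.40 in their deviations, and 6 of 11 correlated best with their own number, a hint of pairing in the data. The highest values were 0.40 for obese and cocktail replicates 1, both low in atrial markers, and 0.34 for obese and cocktail replicates 3, both atrial-rich. The part of atrial tissue in these correlations was not tested. Since not every pair was above 0.1 and the labels do not say what a number marks, the numbers were not taken as pairs. Leaving out libraries moved the members' share within 0.660 to 0.709% (control diet), 0.464 to 0.510% (obese) and 0.630 to 0.712% (cocktail); of nuclear protein-coding counts the shares were 1.22%, 0.793% and 1.001%. The causes were not tested.

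Of 87 members, 7 changed sign with the diet under the intronic covariate and 5 without TMM factors; for cocktail against control diet these counts were 13 and 31, and for cocktail against obese 4 and 0. Among the genes that the naming rule picked, signs turned as follows. With the intronic covariate, the diet values became 0.29 for Rpl36al, 0.28 for Rpl3l, 0.16 for Rpl7l1, 0.24 for Rplp1 and 0.045 for Rps27l; cocktail against obese became -0.21 for Rpl36al, -0.15 for Rpl7l1 and -0.18 for Rps27l, and cocktail against control diet 0.078 for Rpl36al, 0.018 for Rpl7l1 and 0.33 for Rplp1. Without TMM factors, the diet values became 0.16 for Rpl7l1 and 0.032 for Rplp1, and cocktail against control diet 0.14 for Rpl10, 0.036 for Rpl12, 0.034 for Rpl36al, 0.10 for Rpl38, 0.016 for Rpl41, 0.18 for Rpl7l1, 0.37 for Rplp1, 0.11 for Rpsa and 0.0080 for Taf1d. With upper-quartile scaling and with nuclear protein-coding genes only, cocktail against obese was -0.021 and -0.00936 for Rpl7l1, and cocktail against control diet 0.0024 and 0.014 for Rplp1. Without the atrial-rich libraries, cocktail against control diet was -0.33 for Rpl3 and 0.062 for Rplp1, and cocktail against obese -0.028 for Rpl36al, 0.24 for Rpl3l, -0.0702 for Rpl7l1 and -0.19 for Rps27l. Over left-out libraries, cocktail against control diet ran from -0.016 to 0.25 for Rpl3 and from -0.21 to 0.098 for Rplp1, and cocktail against obese from -0.0303 to 0.17 for Rpl36al, -0.56 to 0.060 for Rpl3l, -0.044 to 0.081 for Rpl7l1 and -0.047 to 0.32 for Rps27l.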
